A study of Mus musculus with 23 samples.

Results

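The genes described here are 47 components of the DNA replication machinery, named one by one as a list and found by gene name among the 22619 named genes quantified in mouse zygotes and 2-cell embryos. All 47 were present in the annotation. They comprise the 6 subunits of the origin recognition complex (Orc1 to Orc6), the licensing factors Cdc6 and Cdt1 with the CDT1 inhibitor Gmnn, the 6 MCM helicase subunits (Mcm2 to Mcm7), the firing factors Cdc7, Dbf4, Mcm10 and Cdc45, and the 4 GINS subunits. The rest are primase and polymerase alpha (Pola1, Pola2, Prim1, Prim2), polymerases delta and epsilon (Pold1, Pold2, Pold3, Pole, Pole2), the clamp Pcna and its loader Rfc1 to Rfc5, replication protein A (Rpa1, Rpa2, Rpa3), Timeless and Tipin, Fen1 and Lig1, and the ribonucleotide reductase subunits Rrm1 and Rrm2.

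A eukaryotic origin is licensed when the origin recognition complex, CDC6 and CDT1 load the MCM helicase onto DNA. The CDC7 and DBF4 kinase then helps recruit CDC45 and GINS to form the active helicase, behind which primase and the polymerases copy both strands while replication protein A covers the single-stranded DNA. The first embryonic cell cycle of the mouse depends largely on products stored in the oocyte, and the main wave of transcription from the embryo's own genome comes at the 2-cell stage, so each replication gene can be read as a maternal RNA, an embryonic RNA or both.

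The labels give the strain as B6D2F1 (C57BL/6xDBA/2), which in the study's methods is the strain of the oocyte donors, with sperm from C57BL/6 males. Germinal vesicle (GV) stage oocytes were injected with siRNA to Etv5, to Mlx or to Rfx1 or with a control siRNA, siCtrl. Maturation followed in vitro, and fertilization was in vitro per the labels and by sperm injection per the study's methods, so the siCtrl embryos shared the injection and the in vitro maturation with the knockdown (KD) groups. 2-cell embryos were collected at 36 h and late zygotes at 14 h post fertilization according to the labels, whereas the study's methods give later times for both stages. There were 3 libraries of siEtv5, siMlx, siRfx1 and siCtrl zygotes each, 3 of siMlx, siRfx1 and siCtrl 2-cell embryos each and 2 of siEtv5 2-cell embryos, 23 in all, and since the labels do not say whether replicates came from separate embryo collections, the p-values cover only the spread among libraries, which may be technical in part. Levels are in FPKM (fragments per kilobase of transcript, scaled to library size). The study's methods used oligo-dT, and coverage leaned to the 3' end to a degree that differed between libraries. Levels of long and short genes are therefore only roughly comparable with each other.

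The siRNA targets were low where they were aimed. Etv5 had 8.98 and 5.55 FPKM in siEtv5 2-cell embryos against 43.7 to 49.3 in siCtrl 2-cell embryos, and Rfx1 had 1.43 to 1.53 FPKM in siRfx1 2-cell embryos against 8.12 to 10.7. In zygotes each target was below every siCtrl library (Etv5 0 to 0.0792 against 0.680 to 2.01 FPKM, Mlx 0 to 0.469 against 1.84 to 4.25, Rfx1 0.149 to 0.481 against 3.05 to 3.52), whereas Mlx overlapped in 2-cell embryos, with 0.836 to 4.05 FPKM in siMlx against 2.42 to 4.42 in siCtrl. Targets were also low in groups aimed at another gene: Rfx1 had 0.863 to 1.33 FPKM in siMlx zygotes, 1.85 to 2.88 in siMlx 2-cell embryos and 4.39 and 4.94 in siEtv5 2-cell embryos, and Etv5 had 6.73 to 12.6 in siRfx1 2-cell embryos, each below every siCtrl library of its stage. Low Rfx1 was thus shared by siMlx and siRfx1 embryos of both stages and by siEtv5 2-cell embryos, and low Etv5 by siEtv5 and siRfx1 2-cell embryos. Mlx had 21.5, 0 and 0 FPKM in siRfx1 2-cell embryos. The 10 oocyte markers summed to 568 to 576 FPKM in siEtv5, 145 to 277 in siMlx and 649 to 821 in siRfx1 2-cell embryos, against 361 to 419 in siCtrl 2-cell embryos, and to 2849 to 5697 in zygotes of all groups. The 10 markers of the 2-cell stage summed to 1328 to 1508 in siEtv5, 122 to 483 in siMlx and 248 to 359 in siRfx1 2-cell embryos, against 607 to 815 in siCtrl 2-cell embryos, and to 27.9 to 84.0 in zygotes, with Tcstv1 and Tcstv3 at 0 throughout. The 11 cumulus and granulosa markers summed to at most 20.1 FPKM in any library with Inha and Lhcgr at 0 throughout, and the 8 sperm markers to at most 37.6 with Prm1 and Smcp at 0 throughout. The siRfx1 2-cell libraries stood apart, with 119 to 174 Mb of aligned sequence against 727 to 967 Mb in siCtrl 2-cell embryos. They held 7378 to 8071 genes at 1 FPKM or more, against 10567 to 10729. The share of coverage nearer to the 3' than to the 5' end was taken per transcript. Its median over 2538 long transcripts of several exons, detected in every library, was 92.2 to 95.1% in siRfx1 2-cell embryos. In siCtrl 2-cell embryos it was 78.4 to 81.6%. In siMlx zygotes that share was 54.2 to 60.7%, against 68.6 to 77.0% in siCtrl zygotes. FPKM is relative to the library, and in such pooled samples fewer cells carrying an RNA and less RNA per cell cannot be told apart.

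The promoters of 6 genes are shown for a pattern described below: in siCtrl embryos, partners within a complex differed between stages in opposite directions. How often partners do so in complexes of other genes was not counted. Of all genes tested in siCtrl embryos, 37.0% were called higher and 26.9% lower at the 2-cell stage. Gins3, Orc1 and Rpa2 were the genes called higher at the 2-cell stage in every siRNA group. Gins2, Orc5 and Rpa3 are partners of theirs that were lower in 2-cell than in zygote siCtrl embryos. Orc3 was called lower there too and is not shown. Each run covers the 270 bases before and the 30 bases from the first annotated start of the gene on the mm9 genome, read along the gene's strand: Gins3 chr8:98157189-98157488 (plus), Gins2 chr8:123112946-123113245 (minus), Orc1 chr4:108251789-108252088 (plus), Orc5 chr5:22056120-22056419 (minus), Rpa2 chr4:132324005-132324304 (plus) and Rpa3 chr6:8209112-8209411 (minus). Capitals mark matches, on either strand, to the E2F site (TTTCCCGC, TTTCGCGC, TTTGCCGC or TTTGGCGC), the E-box (CACGTG), the X-box core (GTTGCCA), the ETS site (CCGGAAGT) and the CCAAT box (CCAAT).
Gins3: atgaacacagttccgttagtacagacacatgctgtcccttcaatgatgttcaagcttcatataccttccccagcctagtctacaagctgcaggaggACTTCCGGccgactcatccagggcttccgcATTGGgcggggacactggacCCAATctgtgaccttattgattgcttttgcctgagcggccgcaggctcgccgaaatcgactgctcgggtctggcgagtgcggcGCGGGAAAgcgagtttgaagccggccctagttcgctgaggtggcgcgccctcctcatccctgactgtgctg
Gins2: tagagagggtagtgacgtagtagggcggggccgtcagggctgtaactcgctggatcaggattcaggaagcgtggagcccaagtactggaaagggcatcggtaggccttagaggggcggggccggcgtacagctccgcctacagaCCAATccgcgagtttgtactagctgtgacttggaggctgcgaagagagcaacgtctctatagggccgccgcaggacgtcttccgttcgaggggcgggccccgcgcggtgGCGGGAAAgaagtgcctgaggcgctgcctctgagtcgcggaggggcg
Orc1: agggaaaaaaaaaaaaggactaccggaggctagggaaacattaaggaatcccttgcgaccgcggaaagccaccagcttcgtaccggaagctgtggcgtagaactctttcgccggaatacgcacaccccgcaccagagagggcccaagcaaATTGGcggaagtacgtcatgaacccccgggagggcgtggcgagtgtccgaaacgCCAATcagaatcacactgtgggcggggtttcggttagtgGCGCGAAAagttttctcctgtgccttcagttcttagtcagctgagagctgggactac
Orc5: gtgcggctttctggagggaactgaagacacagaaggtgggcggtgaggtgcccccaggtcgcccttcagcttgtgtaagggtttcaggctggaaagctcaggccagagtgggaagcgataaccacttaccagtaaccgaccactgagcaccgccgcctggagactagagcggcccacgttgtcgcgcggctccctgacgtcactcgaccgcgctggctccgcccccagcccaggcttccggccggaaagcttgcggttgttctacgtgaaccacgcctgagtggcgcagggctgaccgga
Rpa2: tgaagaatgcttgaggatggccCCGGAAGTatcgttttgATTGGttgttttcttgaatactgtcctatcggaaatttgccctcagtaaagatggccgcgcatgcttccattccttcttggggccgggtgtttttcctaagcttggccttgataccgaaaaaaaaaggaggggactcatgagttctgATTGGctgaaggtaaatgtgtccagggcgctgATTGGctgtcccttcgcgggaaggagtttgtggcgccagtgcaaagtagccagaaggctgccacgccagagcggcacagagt
Rpa3: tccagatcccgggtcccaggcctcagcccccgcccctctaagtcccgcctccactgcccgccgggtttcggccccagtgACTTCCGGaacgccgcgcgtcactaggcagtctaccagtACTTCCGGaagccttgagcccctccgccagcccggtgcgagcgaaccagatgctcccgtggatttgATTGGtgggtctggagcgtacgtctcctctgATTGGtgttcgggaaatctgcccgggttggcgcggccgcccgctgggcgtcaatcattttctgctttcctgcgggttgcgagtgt

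Gins3, Gins2 and Orc1 each held an E2F match within the last 50 bases before the start together with at least 1 CCAAT box. Rpa2 and Rpa3 held ETS and CCAAT matches and no E2F match, and Orc5 held none of the 5 motifs. E2F factors are the classical regulators of S-phase genes, and an E2F match was found in 17 of the 47 promoters (36.2%), against 625 of 22394 promoters of the same length (2.79%). The CCAAT box, the site of NF-Y, was in 31 of 47 (66.0%), against 38.6% of all promoters, and the ETS site, the kind of sequence bound by ETV5, in 9 of 47 (19.1%), against 5.11%. The E-box, the kind of sequence bound by MLX dimers, was in 8 (17.0%), against 7.96%, and the X-box core, the kind bound by RFX1, in Rpa1 alone (2.13%), against 3.98%. E2F matches were not on one side of the stage difference: in siCtrl embryos they stood in 6 of 13 promoters of genes that were higher in 2-cell than in zygote embryos (Mcm3, Mcm5, Mcm6, Orc1, Cdc6 and Gins3), in 4 of 7 of those that were lower (Orc3, Gins2, Pold3 and Rfc3) and in 6 of 22 tested genes that were not called. The Cdc6 window is that of the upstream of its 2 annotated starts. The window of the downstream start, to which Cdc6 was assigned in 2 of 3 siCtrl 2-cell libraries, was not searched. A match is a description of letters and not a binding site.

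The levels of the 47 genes spanned from 0 to 721 FPKM. In siCtrl 2-cell embryos the leading genes were Gmnn at 258 ± 11.8 FPKM, Orc6 at 188 ± 25.9 and Dbf4 at 175 ± 96.3, and in siCtrl zygotes Dbf4 at 284 ± 96.5, Gmnn at 152 ± 11.3 and Pcna at 134 ± 3.36 (SD, n = 3 each). Geminin (Gmnn) keeps CDT1 from relicensing origins, and DBF4 is the activating subunit of the CDC7 kinase. Dbf4 was the highest of the 47 in siMlx and siRfx1 2-cell embryos and in zygotes of every group, and Gmnn was the highest in siEtv5 2-cell embryos. The members summed to 1854 to 2094 FPKM in siCtrl 2-cell embryos and 1410 to 1626 in siCtrl zygotes.

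Of the other genes that led a group, the clamp Pcna had 161, 133 and 205 FPKM in siCtrl 2-cell embryos and 133, 131 and 138 in siCtrl zygotes. Tipin, which pairs with TIMELESS at the fork, had 143, 134 and 135 FPKM in siCtrl 2-cell embryos and 82.3, 73.3 and 53.9 in siCtrl zygotes. Dbf4 varied by library, with 209.9, 65.7 and 248 FPKM in siCtrl 2-cell embryos and 339, 172 and 340.3 in siCtrl zygotes. Of these 3 genes, Tipin alone had siCtrl groups that did not overlap. Gmnn was between 246 and 269 FPKM in siCtrl 2-cell embryos and between 142 and 164 in siCtrl zygotes, also with no overlap.

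The KD groups were led by the same few genes and a small number of others. In siEtv5 2-cell embryos Gmnn had 212 and 221 FPKM and Pcna 202 and 155, and in siMlx 2-cell embryos Dbf4 had 306, 257 and 253, Gmnn 134, 158 and 245 and Cdt1 192, 141 and 133. In siRfx1 2-cell embryos Tipin had 73.2, 90.5 and 260.1 FPKM, next after Dbf4 and Rpa2, whose values are given below. The siRfx1 values of Tipin were thus uneven. In zygotes Dbf4 had 117, 324 and 375 FPKM in siEtv5, 328, 279.8 and 320.0 in siMlx and 328, 281 and 315 in siRfx1 embryos, beside the siCtrl values above, so a low library was seen in siEtv5 and in siCtrl zygotes. Pcna had 120.3, 167 and 69.6 FPKM in siEtv5, 159.9, 94.0 and 157 in siMlx and 132, 179 and 161 in siRfx1 zygotes. Pold3 was among the first 3 in siEtv5 zygotes with 123, 105 and 101 FPKM, and Gmnn was among the first 3 in siMlx zygotes with 147, 103 and 171 and in siRfx1 zygotes with 122, 157 and 127.

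At the low end, Pold1, the catalytic subunit of polymerase delta, was listed at 0 in 19 of 23 libraries and reached at most 0.376 FPKM. Rfc4, a clamp loader subunit, was at 0 in 21 of 23 and reached at most 0.203, Pole, the catalytic subunit of polymerase epsilon, was at 0 in 11 and reached 1.303, and its partner Pole2 was at 0 in 15 and reached 1.97. These 4 genes were below the 1 FPKM mean needed for a test in every comparison. Lig1, the ligase that joins Okazaki fragments, had 0.226 to 1.51 FPKM outside siRfx1 2-cell embryos, where its libraries had 2.98, 0 and 17.0. Partners of these genes were far above them in the same libraries: Pold3 had 34.5 to 42.9 FPKM and Rfc1 15.9 to 20.3 in siCtrl 2-cell embryos. Rfc4 overlaps Eif4a2 and Lig1 overlaps 6330408A02Rik on the opposite strand, and the quantification did not use strand.

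**Figure D1:**
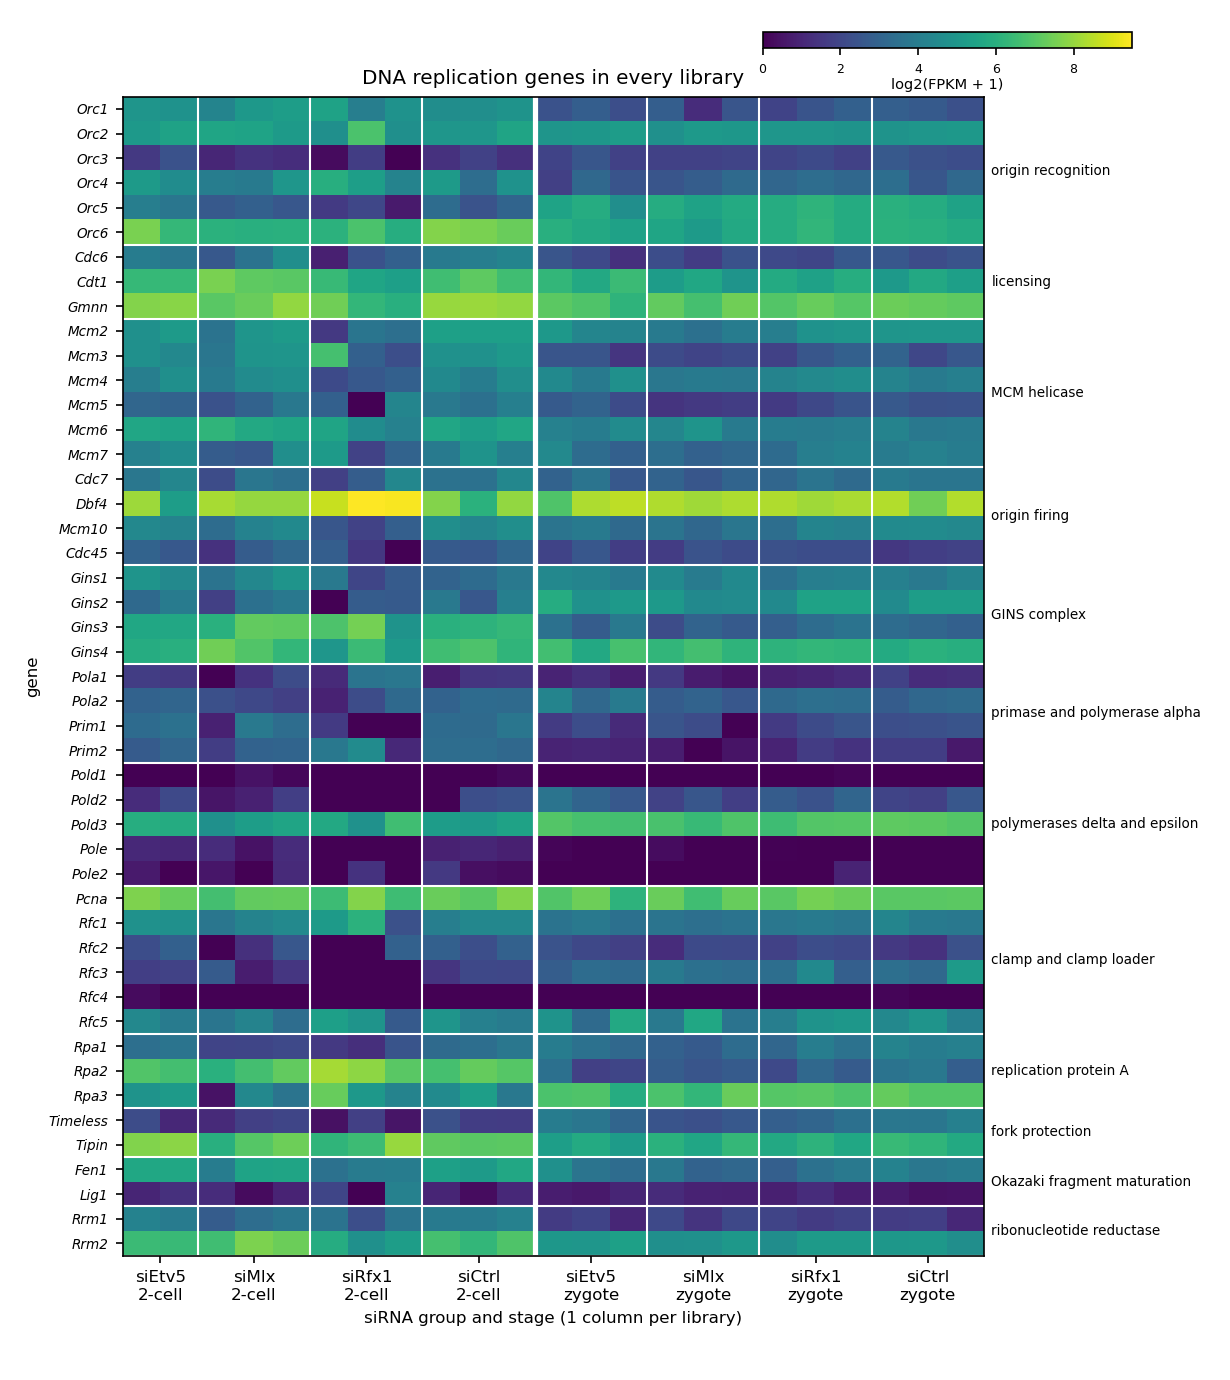
Level of the 47 replication genes in each of the 23 libraries as log2(FPKM + 1), with genes in rows grouped by role and 2-cell libraries left of zygote libraries, KD groups left of siCtrl. Brighter colours are higher levels. Dbf4, Gmnn and Pcna are bright throughout, and Pold1, Pole, Pole2 and Rfc4 are dark throughout. Rpa2 is bright at the 2-cell stage and Rpa3 and Orc5 in zygotes.

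The stage comparison asks how the RNA of each gene differs between 2-cell embryos and zygotes of 1 siRNA group. A gene was called with limma when its p adjusted by Benjamini-Hochberg over all genes tested was under 0.05 and its fold above 2, on log2(FPKM + 1) after rescaling the libraries by the median ratio. In siCtrl embryos 13 of the 42 genes tested were higher and 7 lower in 2-cell embryos, against 37.0% and 26.9% of all 11094 genes tested. The members' share was below that of all genes in each direction. Lack of overlap between groups is described for single genes throughout, and its share over all genes was not counted. Their median log2 fold change was 0.10, and that of all genes 0.27, or 0.35 and 0.52 in FPKM as deposited.

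Within replication protein A, the trimer that coats single-stranded DNA, the 3 subunits went separate ways. Rpa2 had 103, 153 and 125 FPKM in siCtrl 2-cell embryos against 11.3, 12.9 and 6.10 in siCtrl zygotes, the largest log2 fold change of the 42 (3.32 ± 0.30 SE, adjusted p = 3.23e-05). Rpa3 had 22.6, 39.4 and 13.1 FPKM in 2-cell embryos against 152, 122 and 123 in zygotes (-2.73 ± 0.36, adjusted p = 0.000254). Neither gene overlapped between stages, and the 2 differed in opposite directions. Rpa1, the large subunit, had 8.67, 9.83 and 12.6 FPKM in 2-cell embryos against 18.1, 15.0 and 16.5 in zygotes, which passed the adjusted p (0.00674) and not the fold (-0.87 ± 0.21).

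The origin recognition complex showed the same kind of division. Orc1, the subunit with the main ATPase activity, had 24.3, 24.6 and 28.3 FPKM in siCtrl 2-cell embryos against 6.33, 5.38 and 4.03 in siCtrl zygotes (1.88 ± 0.22, adjusted p = 0.000147). Orc6 had 213, 189 and 161 FPKM in 2-cell embryos against 65.6, 62.2 and 55.3 in zygotes (1.35 ± 0.17, adjusted p = 0.000182). Both rose, with no overlap of the groups. Orc5 had 9.31, 4.42 and 7.44 FPKM in 2-cell embryos against 64.4, 58.2 and 43.3 in zygotes (-3.07 ± 0.28, adjusted p = 3.91e-05), and Orc3 also fell (-1.09). The remaining subunits, Orc2 and Orc4, were not called, although the Orc4 estimate was 1.18 ± 0.47 (adjusted p = 0.0516). Orc3 overlaps Akirin2 and Orc4 overlaps Acvr2a on the opposite strand, and Orc5 overlaps Gm15421 on the same strand, so their values may hold reads of those neighbours.

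The GINS complex, part of the active helicase, was divided as well. Gins3 had 63.8, 69.5 and 79.4 FPKM in siCtrl 2-cell embryos against 9.15, 7.71 and 6.59 in siCtrl zygotes (2.79 ± 0.20, adjusted p = 1.15e-05). Gins2 had 13.3, 4.93 and 16.2 FPKM in 2-cell embryos against 22.2, 38.3 and 37.6 in zygotes (-1.77 ± 0.42, adjusted p = 0.00569). The groups did not overlap for either gene. Gins1 passed the adjusted p and not the fold (-0.91 ± 0.26), and Gins4, at 72.3 to 114 FPKM in 2-cell embryos and 55.3 to 65.2 in zygotes, was not called. Gins2 overlaps Gse1 on the opposite strand.

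**Figure D2:**
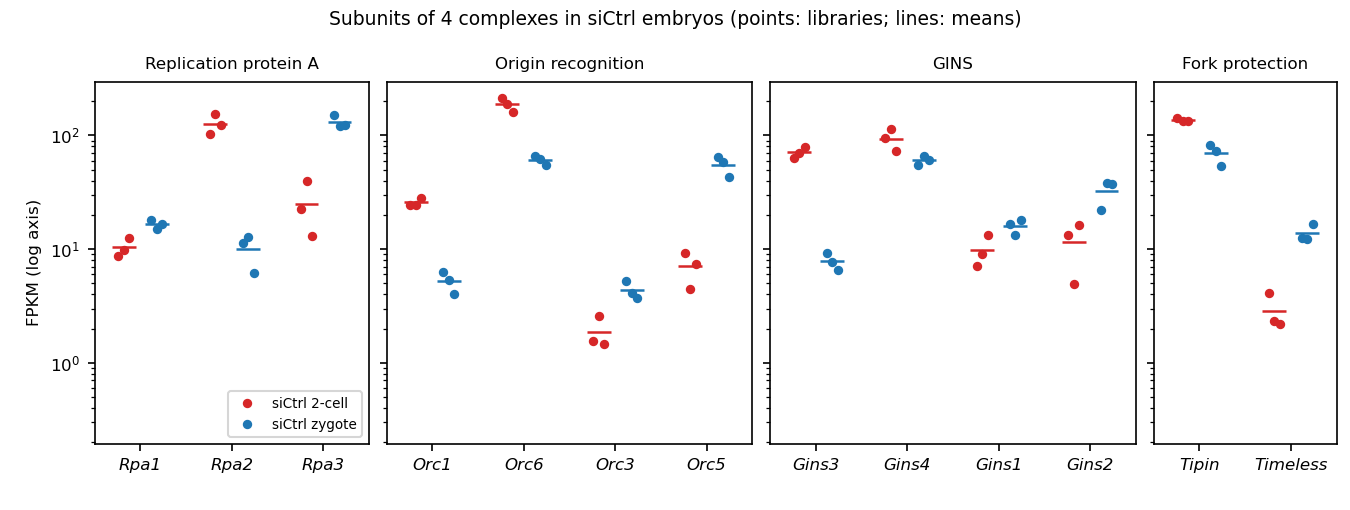
FPKM of subunits of 4 complexes in siCtrl embryos on a log axis, 3 libraries as points for 2-cell embryos (left of each pair) and zygotes (right). Orc2 and Orc4, the origin recognition subunits that were not called, are not drawn. Rpa2, Orc1, Orc6 and Gins3 lie higher in 2-cell embryos and Rpa3, Orc5, Gins2 and Timeless lower, with Rpa2 at 103 to 153 FPKM and Rpa3 at 13.1 to 39.4 in 2-cell embryos.

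Among the licensing genes and the MCM ring subunits the called differences were all rises. Cdc6, the loader that works with the origin recognition complex, had 14.0, 15.6 and 18.7 FPKM in siCtrl 2-cell embryos against 4.99, 3.65 and 4.37 in siCtrl zygotes (1.45 ± 0.22, adjusted p = 0.000614). Mcm3 had 26.9, 26.6 and 33.0 FPKM against 7.20, 3.10 and 4.98 in zygotes (2.11 ± 0.28, adjusted p = 0.000276). Mcm6 had 47.9, 39.2 and 48.6 FPKM against 17.9, 13.0 and 14.1 in zygotes (1.29 ± 0.20, adjusted p = 0.000554). Cdt1 (1.11) and Mcm5 (1.11) also rose, and each of these 5 genes had every 2-cell library above every zygote library. The other ring subunits were not called. Mcm2 stood at 39.8 to 41.1 FPKM in 2-cell embryos and 30.2 to 30.8 in zygotes, Mcm4 at 14.9 to 24.8 and 14.1 to 18.2, and Mcm7, whose introns host microRNA genes, at 14.1 to 28.6 and 14.5 to 16.9. The firing factors Cdc7, Dbf4, Mcm10 and Cdc45 were not called either, with Cdc45 at 4.91 to 7.94 FPKM in 2-cell embryos and 1.93 to 2.68 in zygotes and Mcm10 at 18.8 to 25.1 and 20.4 to 23.1.

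Genes of DNA synthesis and nucleotide supply followed. Prim2, the large primase subunit, had 9.53, 9.62 and 8.19 FPKM in siCtrl 2-cell embryos against 2.32, 2.28 and 0.563 in siCtrl zygotes (1.78 ± 0.35, adjusted p = 0.00228). Rrm1 and Rrm2 are the large and small subunits of the enzyme that makes deoxyribonucleotides. Rrm1 had 14.1, 14.0 and 17.2 FPKM against 2.18, 2.36 and 1.06 in zygotes (2.31 ± 0.28, adjusted p = 0.00015), and Rrm2 had 101, 77.9 and 117 against 31.5, 32.6 and 25.01 (1.44 ± 0.21, adjusted p = 0.000403). Fen1, the flap nuclease of Okazaki fragments, rose too (1.195). These 4 genes had 2-cell libraries all above the zygote libraries.

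Other genes of the fork were higher in zygotes. Pold3, an accessory subunit of polymerase delta, had 37.3, 34.5 and 42.9 FPKM in siCtrl 2-cell embryos against 141, 137 and 122 in siCtrl zygotes (-2.03 ± 0.16, adjusted p = 1.8e-05). Rfc3, a clamp loader subunit, had 1.75, 3.20 and 3.03 FPKM against 10.1, 8.22 and 35.5 in zygotes (-2.31 ± 0.51, adjusted p = 0.00397). Timeless had 4.08, 2.34 and 2.20 FPKM against 12.6, 12.3 and 16.7 in zygotes (-2.17 ± 0.27, adjusted p = 0.000197). None of the 3 overlapped between stages, and the Rfc3 value of 35.5 was far above the other zygote libraries. Tipin, the partner of Timeless, passed the adjusted p in the other direction without passing the fold (0.73 ± 0.19, adjusted p = 0.00827). Pola1, Pola2, Prim1, Pold2, Pcna, Rfc1, Rfc2 and Rfc5 were not called.

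The transcript records held further detail for 2 of these genes. Cdc6 has 2 annotated starts on chromosome 11 of mm9, at 98769203 and 98769465. The whole Cdc6 FPKM of a library was assigned to a single one of them, apart from at most 0.0294 FPKM of the downstream one in zygotes: the downstream start took it in 2 of 3 siCtrl 2-cell libraries and the upstream start in the third and in all siCtrl zygotes. For Orc4, a transcript of 1397 bases and 7 exons averaged 14.4 ± 5.38 FPKM in siCtrl 2-cell embryos and 3.07 ± 0.52 in siCtrl zygotes, beside a long transcript of 4075 bases at 9.70 ± 7.92 and 4.55 ± 2.06 (SD, n = 3 each).

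The 3 KD groups allow the same comparison in libraries that the siCtrl comparison did not use. In siEtv5 embryos 13 of 42 genes were higher and 7 lower in 2-cell embryos than in zygotes, against 37.9% and 23.0% of all genes. In siMlx embryos 13 of 42 were higher and 9 lower, against 35.4% and 29.1%. In siRfx1 embryos 4 of 43 were higher and 10 lower, against 18.7% and 29.7%. The members' median log2 fold changes were 0.44, 0.11 and -0.56, beside 0.40, 0.20 and -0.23 for all genes in the same order of groups. In siRfx1 embryos the balance of calls thus differed from the other groups for all genes as well as for the members, and these are the 2-cell libraries of low depth and strong 3' weight.

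The balance of higher against lower calls also moved with the scaling. With the trend on transcript length removed, 8 members were higher and 10 lower in siCtrl (31.6% and 31.9% of all genes), 9 and 9 in siEtv5 (30.7% and 30.9%), 10 and 10 in siMlx (31.5% and 32.8%) and 6 and 9 in siRfx1 embryos (21.1% and 26.0%). With all groups in 1 fit they were 11 and 9 in siCtrl (33.7% and 27.1% of all genes), 9 and 9 in siEtv5 (30.2% and 26.4%), 8 and 10 in siMlx (32.8% and 30.9%) and 7 and 14 in siRfx1 embryos (27.9% and 34.7%). FPKM as deposited gave 16 and 6 in siCtrl (39.9% and 23.3%), 16 and 6 in siEtv5 (41.7% and 19.2%), 13 and 5 in siMlx (40.2% and 24.1%) and 4 and 8 in siRfx1 embryos (20.4% and 26.4%). No called member changed direction under any of these.

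Gins3, Orc1 and Rpa2 were called higher in all 4 stage comparisons, 3 of 42 genes, where 16.4% of all genes were. Orc5, Gins2, Rfc3 and Timeless were called lower in all 4, 4 of 42, where 15.8% of all genes were. Rpa2 kept its call under every alternative run in the 4 comparisons, and the siCtrl calls of these 7 genes were kept as well. In siRfx1 embryos the call was lost in 3 of 14 alternatives each for Gins3 and Gins2 and in 2 for Orc1. In siEtv5 embryos it was lost in 2 of 13 each for Gins3, Orc5 and Rfc3 and in 1 each for Gins2 and Timeless, each time with siEtv5 2-cell replicate 1 or 2 left out, and in siMlx embryos in 2 of 13 for Timeless. Rpa2 had 120.4 and 99.6 FPKM in siEtv5 2-cell embryos against 10.3, 2.51 and 2.97 in siEtv5 zygotes (4.11 on the log2 scale). It had 64.4, 101 and 147 in siMlx 2-cell embryos against 5.93, 4.72 and 5.67 in siMlx zygotes (3.596), and 299.8, 236 and 131 in siRfx1 2-cell embryos against 3.24, 8.14 and 5.63 in siRfx1 zygotes (4.84). No 2-cell library of any group overlapped any zygote library for Rpa2, and the same was so for Orc1, Gins3, Orc5, Gins2 and Rfc3. Timeless overlapped, and outside these 7 genes Rrm1 did not. Orc1 had 30.1 and 27.6 FPKM in siEtv5 2-cell embryos against 4.25, 6.19 and 3.90 in zygotes (2.14). It had 18.5, 32.4 and 37.7 FPKM in siMlx 2-cell embryos against 6.11, 1.32 and 4.65 in zygotes (2.36).

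Gins3 had 64.3, 149 and 142 FPKM in siMlx 2-cell embryos against 3.59, 7.13 and 5.41 in siMlx zygotes (3.81). In siRfx1 embryos it had 115, 179 and 28.2 FPKM against 6.26, 9.35 and 11.4 (2.89). Its lowest 2-cell value, 28.2, was still above its highest zygote value of any group, 13.4. Orc5 had 5.26, 6.44 and 4.90 FPKM in siMlx 2-cell embryos against 57.4, 43.4 and 55.6 in zygotes (-3.37), and 2.07, 3.04 and 0.599 FPKM in siRfx1 2-cell embryos against 57.3, 71.0 and 56.2 in zygotes (-4.70). Gins2 had 0, 5.83 and 5.42 FPKM in siRfx1 2-cell embryos against 21.6, 43.9 and 42.8 in zygotes (-3.52).

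Among the other members with the largest differences, Rpa3 had 0.389, 20.5 and 11.6 FPKM in siMlx 2-cell embryos against 112, 77.0 and 159 in siMlx zygotes (-4.35 ± 0.83). It was also lower in siEtv5 2-cell embryos (-1.75) and was not called in siRfx1 embryos, where a single 2-cell library had 156 FPKM and the others 32.3 and 17.8. Rfc3 had 5.59, 0.708 and 1.81 FPKM in siMlx 2-cell embryos against 13.5, 10.4 and 9.43 in zygotes (-2.19). In siRfx1 embryos Rfc3 was listed at 0 in all 3 2-cell libraries against 9.86, 21.6 and 6.32 FPKM in zygotes, and Pold2, the second subunit of polymerase delta, was listed at 0 in all 3 against 5.87, 4.19 and 7.66. No fold is given for either. Pold2 overlaps Aebp1 on the opposite strand.

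In siEtv5 embryos Tipin had 206 and 226 FPKM at the 2-cell stage against 38.8, 55.4 and 35.7 in zygotes (2.05), and Timeless had 3.63 and 1.09 against 15.0, 12.2 and 7.47 (-2.16). The fork protection partners were thus called in opposite directions in that group. Rrm1 had 17.6 and 14.6 FPKM against 2.16, 2.75 and 1.01 (2.34), Mcm3 26.2 and 20.6 against 4.72, 4.64 and 1.77 (2.20), and Orc4 35.6 and 23.5 against 2.51, 8.19 and 4.48 (2.17). In siRfx1 embryos 6 further genes of the fork and helicase were lower in 2-cell embryos: Timeless (-2.40), Mcm4 (-2.12), Rpa1 (-1.997), Mcm2 (-1.92), Mcm10 (-1.73) and Prim1 (-1.66). The Prim1 call was lost in 11 of 13 alternatives and that of Mcm2 in 7 of 14, and those of Rpa1 and Mcm10 in 2 each.

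In siCtrl, siEtv5 and siMlx embryos together, 10 genes were called higher in each group (Mcm3, Mcm6, Orc1, Cdc6, Gins3, Prim2, Rpa2, Fen1, Rrm1 and Rrm2), where 28.1% of all genes were. A further 6 were called lower in each (Orc5, Gins2, Pold3, Rfc3, Rpa3 and Timeless), where 18.6% of all genes were. The 10 hold a subunit of each of the origin recognition, MCM, GINS, primase, replication protein A and ribonucleotide reductase complexes, and the 6 hold partners of 3 of those.

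**Figure D3:**
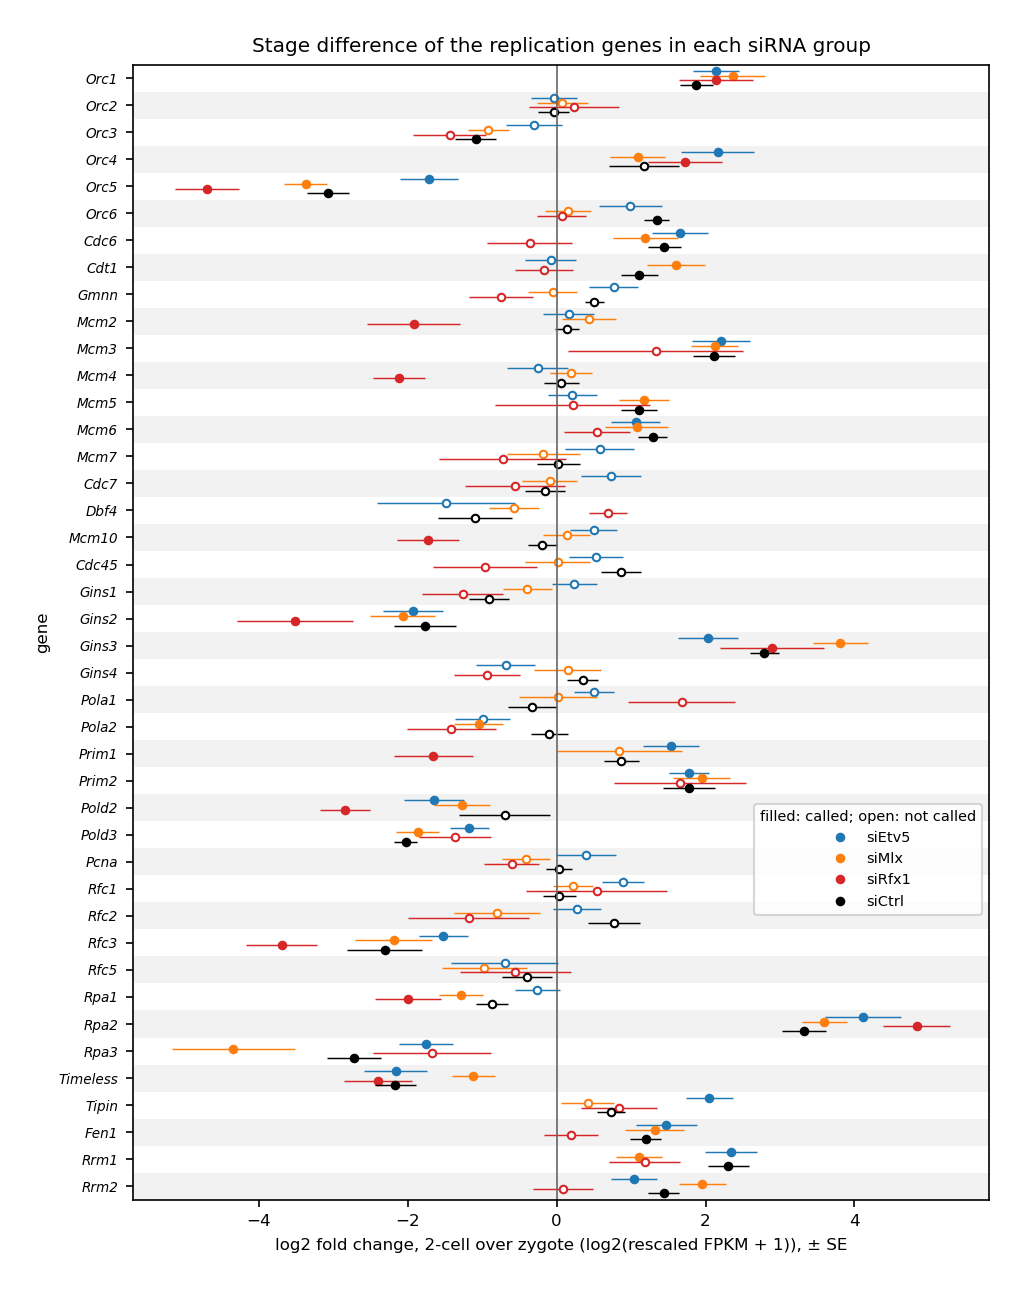
Log2 fold change of 2-cell embryos over zygotes (± SE) for 42 replication genes in 4 siRNA groups, filled where called. Rpa2, Gins3 and Orc1 lie to the right and Orc5, Gins2, Rfc3 and Timeless to the left in all 4 groups, with Rpa2 between 3.32 and 4.84.

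The KD comparisons ask whether loss of Etv5, Mlx or Rfx1 RNA goes with different levels of the replication genes at a given stage. The 3 groups of a stage were compared with the same siCtrl libraries, so the comparisons of a stage are not independent of each other. Across the 6 comparisons 2 calls were made, Timeless lower in siMlx zygotes and Dbf4 higher in siRfx1 2-cell embryos. Timeless lost its call in 8 of 14 alternatives and Dbf4 in 6 of 14.

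In siEtv5 zygotes none of 42 genes was called with limma, where 0% of all genes were called in either direction. Without adjustment 4 of the 42 had a p under 0.05, beside 12.4% of all genes, and limma's voom on estimated fragments called 0. The lowest p values belonged to Pold2, Mcm10 and Cdt1. Pold2 had 11.5, 7.29 and 5.16 FPKM against 2.86, 2.49 and 4.95 in siCtrl zygotes (1.14 ± 0.31, adjusted p = 0.321). Mcm10, which helps the helicase become active, had 11.6, 14.1 and 8.40 FPKM against 22.2, 23.1 and 20.4 (-0.74 ± 0.26, adjusted p = 0.365), and Cdt1 had 77.5, 52.6 and 88.6 against 33.6, 52.4 and 40.4 (0.94 ± 0.32, adjusted p = 0.357). None of the 3 overlapped between groups, and none passed the adjustment. Mcm10 was also below every siCtrl library in siMlx zygotes (11.7, 7.93 and 12.3 FPKM) and in siRfx1 zygotes (9.91, 18.3 and 17.2).

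In siMlx zygotes Timeless had 4.51, 3.93 and 5.13 FPKM against 12.6, 12.3 and 16.7 in siCtrl zygotes (-1.11 ± 0.21, adjusted p = 0.0414). It was the single call among 41 genes, where 1.13% of all genes were higher and 1.02% lower, while 10 of the 41 had an unadjusted p under 0.05, beside 24.7% of all genes. All siMlx values were below all siCtrl values, yet the adjusted p was 0.1002, 0.153 and 0.173 without siCtrl zygote replicates 1, 2 and 3 and 0.134 and 0.0585 without siMlx zygote replicates 1 and 3. It was also 0.0790 without the filter on low values, 0.0538 with the replicate number as a block, and 0.0557 with the length trend removed (-0.99). The part of the 3' share of coverage, given above for these groups, and of the low Rfx1 in siMlx zygotes was not tested. Timeless has no exact E-box match in its 300-base promoter window, and binding of MLX there was not tested. The next lowest p values were those of Mcm2, with 13.6, 10.2 and 14.8 FPKM against 30.2, 30.8 and 30.8 (-0.87 ± 0.19, adjusted p = 0.0524), and of Rpa1, with 6.65, 5.48 and 9.17 against 18.1, 15.0 and 16.5 (-0.82 ± 0.22, adjusted p = 0.0756). In siRfx1 zygotes Timeless was likewise below every siCtrl library, at 6.41, 7.56 and 10.3 FPKM, without passing the test (-0.57 ± 0.20, adjusted p = 0.28).

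In siRfx1 zygotes none of 42 genes was called with limma, where 0.0445% of all genes were higher and 0.0111% lower. There were 6 genes with an unadjusted p under 0.05, beside 14.6% of all genes, and voom called 0. Cdc45 had 4.10, 3.70 and 3.77 FPKM against 1.93, 2.41 and 2.68 in siCtrl zygotes (0.67 ± 0.22, adjusted p = 0.26). Mcm4 had 17.8, 21.4 and 24.5 FPKM against 18.2, 14.1 and 16.3 (0.53 ± 0.16, adjusted p = 0.248), and Gins4 had 69.1, 76.2 and 73.1 against 55.3, 65.2 and 60.7 (0.43 ± 0.15, adjusted p = 0.273). The Mcm4 groups overlapped, and those of Cdc45 and Gins4 did not.

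In siEtv5 2-cell embryos none of 42 genes was called with limma, where 0.0988% of all genes were higher and 0.153% lower. There were 7 with an unadjusted p under 0.05, beside 15.5% of all genes, and voom called 0. Tipin had 206 and 226 FPKM against 143, 134 and 135 in siCtrl 2-cell embryos (0.66 ± 0.15, adjusted p = 0.121). Gins1 had 29.2 and 21.0 FPKM against 7.06, 9.09 and 13.4 (1.298 ± 0.34, adjusted p = 0.155), and Pold3 had 59.2 and 56.7 against 37.3, 34.5 and 42.9 (0.60 ± 0.20, adjusted p = 0.233). These 3 genes had both siEtv5 libraries above every siCtrl library, and so had the summed markers of the oocyte and of the 2-cell stage, whose part was not tested.

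In siMlx 2-cell embryos none of 42 genes was called with limma, where 0% of all genes were higher and 0.00945% lower. There were 6 with an unadjusted p under 0.05, beside 18.7% of all genes, and voom called 0. The siMlx 2-cell libraries were uneven, with 404, 616 and 741 Mb, 3' shares of 67.7, 75.1 and 81.3% and Mlx at 0.836, 2.26 and 4.05 FPKM. The median SD of the members' log2(FPKM + 1) was 0.59, against 0.29 in siCtrl 2-cell embryos. Without siMlx 2-cell replicate 3, 0 members were called, where 1.94% of all genes were higher and 1.57% lower. The part of this spread in the lack of calls was not tested. Orc6 had 65.3, 62.8 and 64.7 FPKM against 213, 189 and 161 in siCtrl 2-cell embryos (-1.27 ± 0.29, adjusted p = 0.111). The siMlx values lay close together. Orc6 had 55.3 to 65.6 FPKM in siCtrl zygotes and 46.8, 35.5 and 51.9 in siMlx zygotes. In siRfx1 2-cell embryos Orc6 had 68.3, 112 and 59.4 FPKM and Rpa1 1.95, 1.41 and 4.55, also below every siCtrl 2-cell library. Rpa1 had 2.84, 3.00 and 3.29 FPKM against 8.67, 9.83 and 12.6 (-1.26 ± 0.34, adjusted p = 0.142), also with no overlap, and Gins1 had 11.2, 20.3 and 29.1 against 7.06, 9.09 and 13.4 (1.15 ± 0.35, adjusted p = 0.159), with overlap. The markers of the oocyte and of the 2-cell stage both summed lower in siMlx than in siCtrl 2-cell embryos, and their part in these values was not tested. Orc6 passed the test in FPKM as deposited and without siMlx 2-cell replicate 1, and the alternatives gave adjusted p-values of 0.0410 to 0.305.

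In siRfx1 2-cell embryos Dbf4 had 410.4, 721 and 683 FPKM against 209.9, 65.7 and 248 in siCtrl 2-cell embryos (2.66 ± 0.51, adjusted p = 0.0388, 6.31-fold). It was the single call among 43 genes, where 2.12% of all genes were higher and 1.45% lower, while 7 had an unadjusted p under 0.05, beside 23.2% of all genes. The groups did not overlap. The oocyte markers summed to 649 to 821 FPKM in siRfx1 against 361 to 419 in siCtrl 2-cell embryos and the markers of the 2-cell stage to 248 to 359 against 607 to 815, and their part in the result was not tested. Without siCtrl 2-cell replicates 1, 2 and 3 the adjusted p was 0.140, 0.107 and 0.127, without siRfx1 2-cell replicates 2 and 3 it was 0.0676 and 0.0673, and its log2 fold change stayed between 1.95 and 3.08 over the alternatives. Rpa2 had 299.8, 236 and 131 FPKM against 103, 153 and 125 (1.45 ± 0.36, adjusted p = 0.0719), and Prim1, the catalytic primase subunit, had 2.02, 0 and 0 against 8.94, 8.83 and 12.3 (-2.52 ± 0.71, adjusted p = 0.0955). Rescaling mattered here: over all genes the median log2 fold change was -0.25 after it and -0.85 in FPKM as deposited. As deposited, 1 of 43 members was called higher and 6 lower, where 1.41% of all genes were higher and 11.3% lower.

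The siRfx1 2-cell libraries also differed most among themselves. The median SD of the members' log2(FPKM + 1) was 0.93 there, against 0.29 in siCtrl 2-cell embryos, and that of all genes at 1 FPKM or more was 1.09 against 0.38. Mcm3 had 103, 6.502 and 3.86 FPKM and Mcm5 6.56, 0 and 18.8 in the 3 siRfx1 2-cell libraries, against 26.6 to 33.0 and 10.3 to 15.9 in siCtrl 2-cell embryos. The part of depth and 3' weight in these values was not tested.

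**Figure D4:**
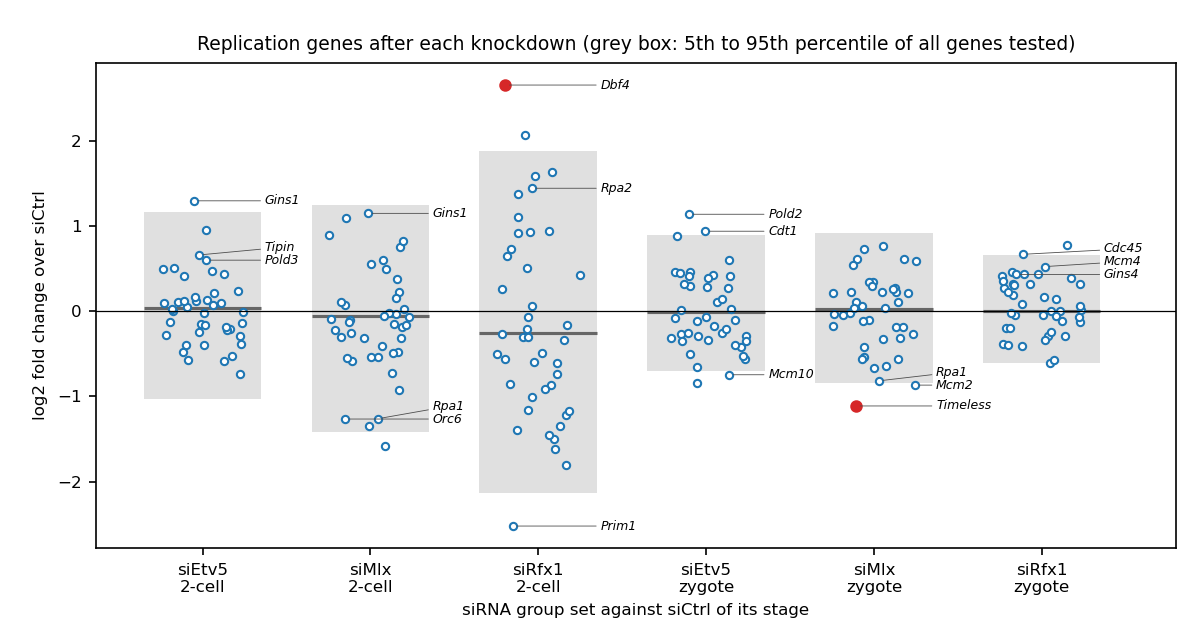
Log2 fold change of each tested replication gene in the 6 KD comparisons, each KD group over siCtrl of the same stage, with a grey box from the 5th to the 95th percentile of all genes tested and a line at their median. Timeless in siMlx zygotes and Dbf4 in siRfx1 2-cell embryos are the 2 calls, at -1.11 and 2.66.

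Whether a KD difference itself differed between the stages was tested as the KD over siCtrl log2 fold change in 2-cell embryos minus that in zygotes. For siRfx1, 2 of 43 genes were called, Mcm4 and Prim1, where 9.96% of all genes were. Mcm4 had 3.35, 5.12 and 6.61 FPKM in siRfx1 2-cell embryos against 22.0, 14.9 and 24.8 in siCtrl 2-cell embryos, and 17.8, 21.4 and 24.5 in siRfx1 zygotes against 18.2, 14.1 and 16.3 in siCtrl zygotes. The siRfx1 libraries were thus below siCtrl at the 2-cell stage and not in zygotes (difference -1.96 ± 0.43, adjusted p = 0.0187). Prim1 had 2.05, 3.497 and 4.73 FPKM in siRfx1 zygotes against 3.92, 3.92 and 4.53 in siCtrl zygotes, beside its 2-cell values above (-2.41 ± 0.63, adjusted p = 0.0342). The Mcm4 call was lost without siCtrl zygote replicates 2 or 3 (0.0580 and 0.0526) or siRfx1 zygote replicates 2 or 3 (0.0516 and 0.0606), and the Prim1 call was lost in 12 of 16 alternatives, with adjusted p-values of 0.0016 to 0.0958. Dbf4 was not called (2.05 ± 0.63, adjusted p = 0.0601).

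For siEtv5 and siMlx 0 of 42 genes were called with limma in this test, where 0.316% and 1.16% of all genes were, with 8 and 5 genes at an unadjusted p under 0.05, beside 18.1% and 16.1% of all genes. Orc6 had the estimate -1.20 ± 0.33 for siMlx (adjusted p = 0.112).

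**Figure D5:**
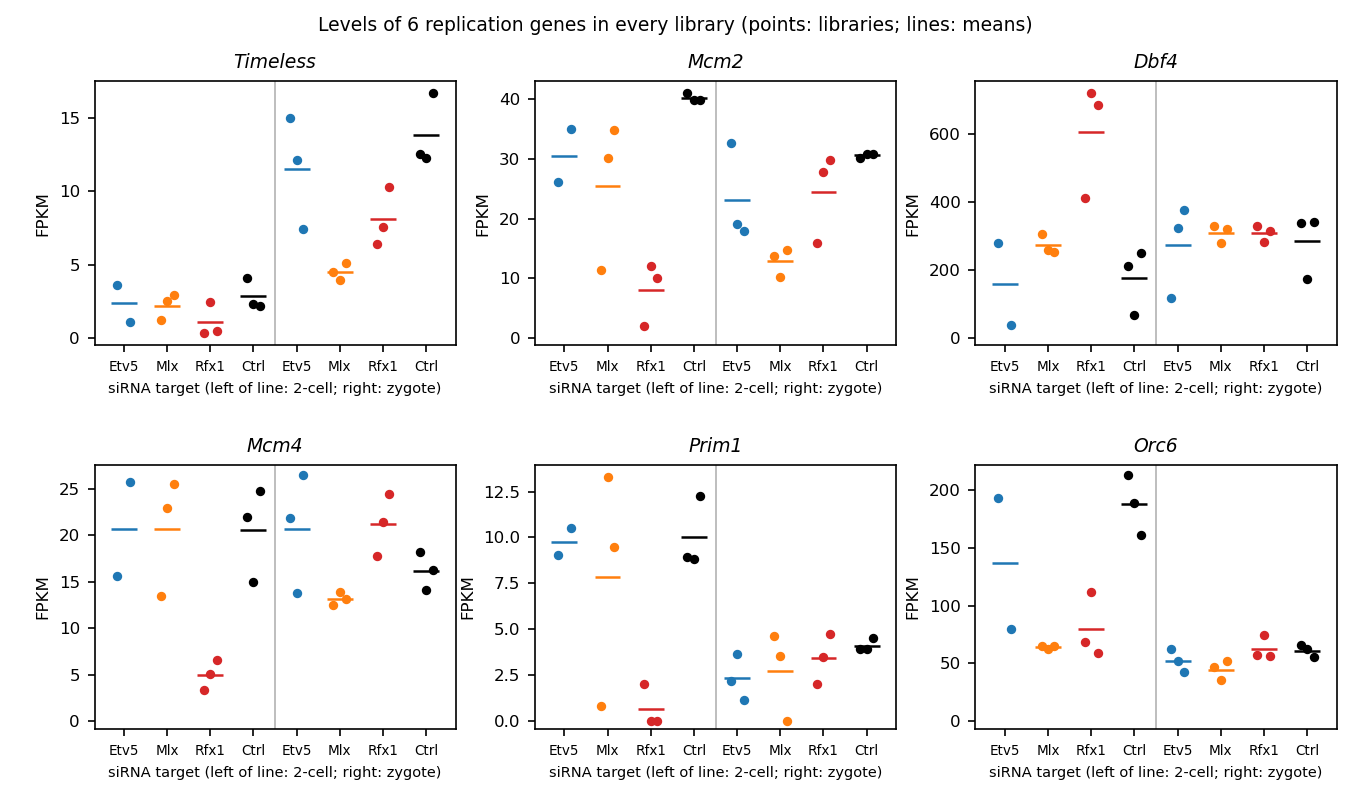
FPKM by library of Timeless, Mcm2, Dbf4, Mcm4, Prim1 and Orc6 in the 8 groups, 2-cell embryos left of zygotes and KD groups left of siCtrl. Timeless lies at 3.93 to 5.13 FPKM in siMlx zygotes and Dbf4 at 410.4 to 721 in siRfx1 2-cell embryos, and Orc6 lies at 62.8 to 65.3 in siMlx 2-cell embryos.

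Replication genes outside the 47 were read from a list of 50 further factors and regulators. In siCtrl embryos 16 of the 45 tested were higher and 7 lower in 2-cell embryos than in zygotes, where 37.0% and 26.9% of all genes were. Those highest were Ccne1 (6.39 ± 0.40), the cyclin that with CDK2 starts S phase, Chtf8 (3.69), a subunit of an alternative clamp loader, and Cdk2 itself (3.67). Those lowest were E2f5 (-3.58), a repressive E2F factor, the checkpoint kinase Chek1 (-3.54) and Rrm2b (-2.04), a further small subunit of ribonucleotide reductase. Rrm2 and Rrm2b were thus called in opposite directions in the same embryos. The counts were 15 higher and 7 lower of 43 in siEtv5 (37.9% and 23.0% of all genes), 15 and 9 of 45 in siMlx (35.4% and 29.1%) and 5 and 12 of 39 in siRfx1 embryos (18.7% and 29.7%).

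With limma, KD comparisons called these further genes only in siRfx1 2-cell embryos. Of 45 tested there, 2 were higher and 1 lower, where 2.12% of all genes were higher and 1.45% lower. Rrm2b (2.15) and E2f1 (1.47) were the higher ones. Rnaseh2c, a subunit of ribonuclease H2, was the lower one, listed at 0 in all 3 libraries against 18.8, 15.7 and 13.5 FPKM in siCtrl 2-cell embryos. In the other 5 KD comparisons, with 0 calls by limma, 2 to 9 of the 38 to 45 tested had an unadjusted p under 0.05, beside 12.4 to 24.7% of all genes. The siRfx1 difference between stages called 2 of 46 higher and 4 lower, where 9.96% of all genes were called. No alternatives were run for single genes outside the 47.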

How the data were processed

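RNA-seq was measured in 23 libraries of mouse zygotes and 2-cell embryos in 8 groups, mapped to groups by their labels. The authors aligned the reads to mm9 with STAR (2.5.2b in the submitters' processing notes) and ran StringTie (1.3.4 in those notes) on annotated transcripts without a strand option. The deposited files give, for each transcript, its FPKM and its read coverage, and both were used. Read counts were not analysed here.

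FPKM was summed per gene (22619 named genes). The ratio of coverage to FPKM gave the aligned bases of each library, 119 to 991 Mb, from amplified reads without molecular identifiers. Libraries of a comparison were scaled to each other by median ratios, taken over genes that reached 1 FPKM in every one. limma 3.58.1 in R 4.3.3 was fitted to log2(FPKM + 1) with its mean-variance trend, on the compared groups only and on genes averaging 1 FPKM or more, with Benjamini-Hochberg adjustment over all genes tested. Fold changes are on this scale and are therefore compressed for genes of low level. Calls need adjusted p-values under 0.05 together with folds above 2. The study's methods test read counts, so the test differs. There were 13 comparisons: 6 of a KD group with siCtrl, 4 between stages and 3 of KD differences between stages. The fit was tested on simulated data. No 2 libraries held identical values.

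Members, gene lists, motifs and tests were chosen with earlier results of these data known. Values per library are given for up to 16 called members with the largest difference in the siCtrl stage comparison, up to 6 in the others, the 3 lowest p where fewer than 3 were called in a KD comparison, and the 3 highest means of each group. All p-values are two-sided. The alternatives tried were 0.1 as pseudocount, a 5 FPKM filter or none, FPKM as deposited, all groups in 1 fit, the replicate number as a block, voom on fragments estimated from coverage, removal of the trend on transcript length, and each library left out in turn. Promoter sequence came from the mm9 genome and the annotated starts, and all 47 genes matched.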

Additional observations from a re-analysis of the deposited data

Results flagged for a closer look

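Mcm4 and Prim1 are listed because they were the members for which the siRfx1 difference from siCtrl was itself called different between the stages. The difference of log2 fold changes was -1.96 ± 0.43 for Mcm4 (limma, adjusted p = 0.0187) and -2.41 ± 0.63 for Prim1 (adjusted p = 0.0342). The call was lost in 4 of 17 alternatives for Mcm4 (adjusted p 0.00539 to 0.0606) and in 12 of 16 for Prim1 (0.0016 to 0.0958). Mcm4 was below every siCtrl library in 3 of 3 siRfx1 2-cell libraries, and Prim1 likewise, at 2.02, 0 and 0 FPKM. In the same libraries the test called 9.96% of all genes, a larger share than the 2 of 43 members. The siRfx1 2-cell libraries had 119 to 174 Mb of aligned sequence, against 727 to 967 Mb in siCtrl 2-cell embryos. The part of depth in either result was not tested. With 3 libraries or fewer per group, no single library was tested for standing apart.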

How the results depend on the processing

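No member value changed sign under the alternatives run for it. The block, voom and length trend fits were run for the 10 KD and stage comparisons and not for the 3 differences between stages, and no alternative was run for single genes outside the 47. In siMlx zygotes, where 1 gene was called, there were 0 calls without the filter, 3 in FPKM as deposited and 0 with the length trend removed, and 0 to 1 with each library left out. Of all genes, 0.0869% were higher and 0.0535% lower without the filter, 0.792% and 6.83% as deposited and 0.548% and 0.694% with the length trend removed. With a library left out, 0 to 1.73% of all genes were higher and 0.0224 to 1.17% lower. In siMlx 2-cell embryos (0 calls) there was 1 in FPKM as deposited and 0 to 1 with a library left out. Of all genes, 0.113% were higher and 0.601% lower as deposited, and 0 to 1.94% and 0 to 1.57% with a library left out. In siRfx1 2-cell embryos (1 call) there were 2 with a pseudocount of 0.1, 0 without the filter, 7 in FPKM as deposited, 4 with all groups in 1 fit, 2 with the length trend removed and 0 to 4 with a library left out. The siRfx1 difference between stages (2 calls) gave 1 without the filter, 1 at 5 FPKM, 4 in FPKM as deposited and 0 to 10 with a library left out, the siEtv5 one (0 calls) 0 to 3 and the siMlx one (0 calls) 0 to 1. Of all genes, the siRfx1 one called 1.78% higher and 5.00% lower without the filter, 4.73% and 7.21% at 5 FPKM and 2.39% and 12.8% as deposited. With a library left out it called 1.64 to 6.41% higher and 2.77 to 15.0% lower. The siEtv5 one then called 0.0450 to 2.64% and 0.0537 to 3.75%, and the siMlx one 0.0277 to 0.717% and 0.120 to 1.90%. The stage calls numbered 19 to 22 in siCtrl (20 in full), 7 to 21 in siEtv5 (20), 16 to 19 in siMlx (22) and 6 to 20 in siRfx1 embryos (14) with a library left out. The low counts were 7 and 8 without siEtv5 2-cell replicates 1 and 2, which leaves a lone library assumed to vary like the zygotes, and 9, 6 and 7 without siRfx1 zygote replicates 1, 2 and 3. Of all genes, the stage comparisons with a library left out called 35.0 to 37.1% higher and 25.2 to 26.7% lower in siCtrl embryos. These shares were 32.5 to 37.1% and 25.8 to 29.7% in siMlx and 12.9 to 23.7% and 21.2 to 33.1% in siRfx1 embryos. In siEtv5 embryos with a zygote library left out they were 36.2 to 37.7% and 20.2 to 23.8%. Among single genes in siCtrl embryos, Cdt1 (0.70), Fen1 (0.79), Orc6 (0.83), Mcm5 (0.89) and Mcm6 (0.99) fell below a fold of 2 with the length trend removed. Of the single-gene values under all alternatives, 1254 kept their side of the threshold, 159 lost a call and 16 gained one.

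With the replicate number as a block, siMlx zygotes had 0 calls in place of 1 (Timeless, adjusted p = 0.0538), and no other count of the 10 comparisons moved by over 1.5 times. Of all genes in siMlx zygotes, 0.974% were then called higher and 0.448% lower. Same-numbered libraries did not deviate together (correlations from -0.128 to 0.273, not above 0.1 for every pair of any comparison), so the number was not read as a pairing. In siMlx against siCtrl 2-cell embryos 3 of 3 libraries correlated best with their own number.

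The siRfx1 2-cell libraries held 119 to 174 Mb. A gene listed at 0 there was not detected at that depth, and FPKM alone gives no limit for its level.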
